A study of Mus musculus with 18 samples.

Results

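The genes described here encode keratins, desmosome proteins, cornified envelope and cornification proteins, chains of the epithelial laminin and regulators of squamous differentiation. They are 39 of the 19938 genes that have a transcript cluster of their own on the array, and their clusters were found by symbol in the array annotation. The genes were chosen by function with earlier results of these data known. They were read from 40 transcript clusters, since Sfn has 2, and a cluster is the group of probes that together measure the transcripts of a gene. The sub-groups are 4 keratins of simple epithelia, 11 keratins of stratified epithelia, 9 desmosome genes, 8 envelope and cornification genes, 2 laminin chains and 6 clusters of regulators and other genes.

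The cells were mIMCD-3, an established line of mouse kidney epithelium from the inner medullary collecting duct, so every group comes from a single line and no group from the tissue itself. In the first experiment cells received vehicle, 1 µM AGN193109, or 1 µM AGN193109 and 0.2 µM tRA together. In the second experiment they received vehicle, 25 µM DEAB, or 25 µM DEAB and 0.01 µM tRA together. Treatment lasted 24 h, the vehicle was 0.1% ethanol and 0.1% DMSO, and each group had 3 arrays from 3 cultures. None of these groups received tRA alone, and the dose of tRA differed between the experiments. The name of AGN193109 is spelled AGN193110 or AGN193099 in some labels of the same arrays, and which experiment a vehicle array belongs to was read from how its short name is written.

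All-trans retinoic acid (tRA) binds retinoic acid receptors (RARs), which act on transcription at their target genes. AGN193109 is an antagonist of all RARs, and DEAB blocks aldehyde dehydrogenases, the enzymes of the last step of tRA synthesis. Retinoid deficiency is known to turn simple and glandular linings into stratified, keratinizing epithelium, and retinoids restrain cornification of keratinocytes. Keratins form the intermediate filaments of epithelial cells, and desmosomes anchor these filaments at cell contacts through cadherins (desmogleins and desmocollins), armadillo proteins (plakoglobin and plakophilins) and desmoplakin. In cornifying cells transglutaminases crosslink involucrin, envoplakin, periplakin and small proline-rich proteins into an envelope under the membrane.

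Of 11 collecting duct and epithelial markers, 5 (first experiment) and 4 (second experiment) lay at or above the median of the clusters with a gene symbol, and 2 lay under the 30th percentile in both. Cdh1 averaged 12.25 and 12.91 in the vehicle groups of the AGN193109 and DEAB experiments and Pax2 averaged 10.97 and 11.18 (log2), whereas the principal cell gene Aqp2 averaged 7.79 and 8.01, near that median (7.88 and 8.17). Of these 11 markers and of 6 leukocyte markers, 0 were called in any comparison, and of 8 mesenchymal markers 1, Acta2, was called (below). The arrays of an experiment correlated at 0.985 or above. In some groups all 3 arrays held an identical value for a cluster, as for Krt10 and Trp63 in the DEAB vehicle group (404 of 23410 clusters, or 1.73%), so that the spread of such genes within that group is 0.

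Among the keratins chosen here, those of simple epithelia were bright in vehicle-treated mIMCD-3 cells and those of stratified epithelia were dim. Krt7, Krt8, Krt18 and Krt19, which fill the cytoplasm of single-layered epithelia, had mean levels between 11.66 and 13.57 in the AGN193109 experiment and between 12.21 and 14.01 in the DEAB experiment. The 11 keratins of stratified epithelia lay between 5.81 and 7.26 and between 6.00 and 7.91, all of them under the median of the clusters with a symbol, and 5 of them (Krt1, Krt4, Krt6a, Krt6b and Krt16) lay under the 30th percentile of 6.48 and 6.63 in both experiments. Probes differ in brightness, so these levels show how far a cluster stood above the dim end of the array and do not order genes by abundance.

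Desmosome genes were mostly bright. Jup (plakoglobin), Dsg2, Dsp (desmoplakin), Pkp2, Dsc2, Pkp1 and Pkp3 lay above the median in both experiments, while Dsg3 and Dsc3, the cadherins of squamous epithelium, lay at 5.77 and 5.51 in the first experiment and at 5.68 and 5.59 in the second. Among envelope and cornification genes Ppl (periplakin), Tgm1, Evpl (envoplakin) and Casp14 were above the median. Ivl (involucrin) at 6.18 and 5.97 and Gsdmc at 4.37 and 5.04 were under the 30th percentile. Of the 6 clusters of regulators and other genes, 4 (first experiment) and 5 (second experiment) lay at or above the median. Their highest vehicle means were 10.84 and 11.74. Trp63, which encodes the master regulator of stratified epithelium, averaged 6.71 and 7.39, under the median in both.

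**Figure D1:**
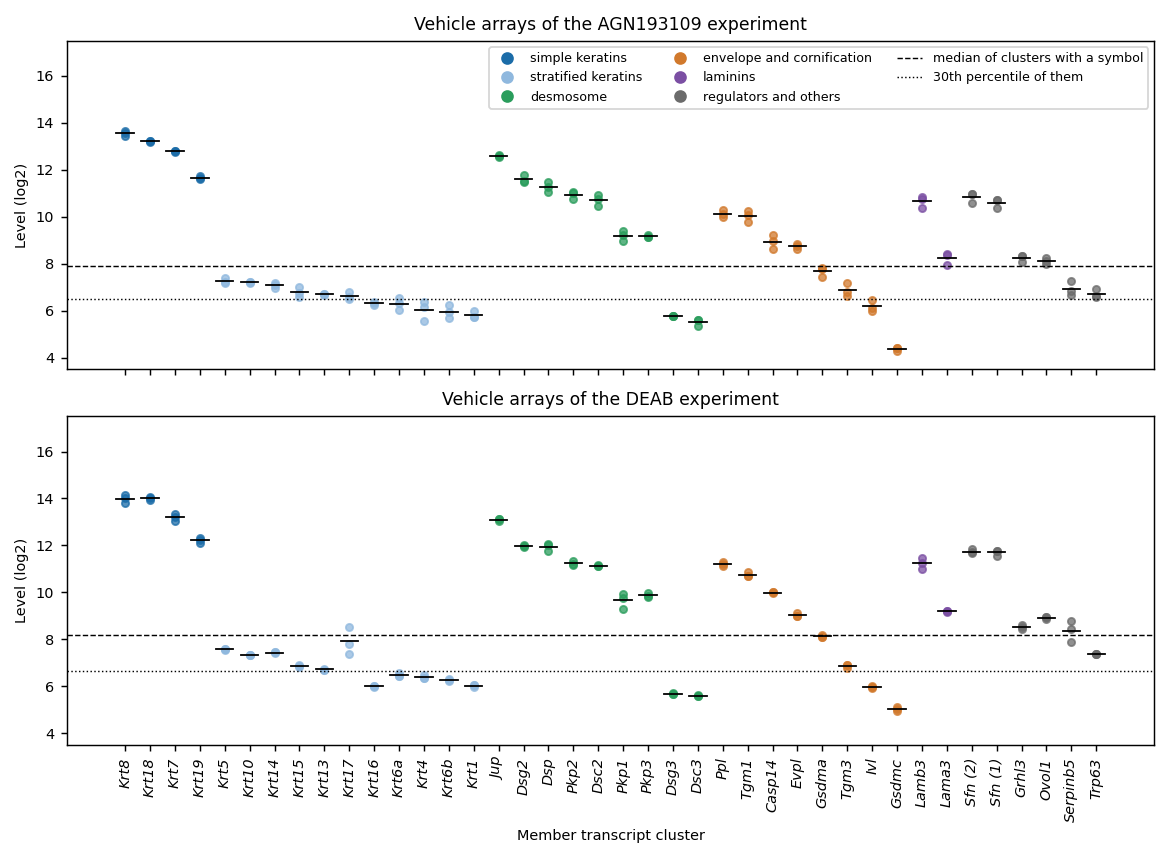
Levels (log2) of the 40 member clusters on the vehicle arrays, with the AGN193109 experiment above and the DEAB experiment below. Points are arrays, short bars are means of 3, and the lines mark the median and the 30th percentile of the 23410 clusters with a symbol over each experiment. The 4 simple keratins stand at 11.66 to 14.01, and the 11 stratified keratins stay at or under 7.91 on average.

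The clearest change among these genes came when tRA was added to DEAB. Dsg2 rose, while Gsdma, Casp14, Grhl3 and Lama3 fell, which makes 1 of 40 clusters higher and 4 lower by limma at an adjusted p under 0.05. The background of all 23410 tested clusters in that comparison was 0.325% called, 0.188% higher and 0.137% lower. Gsdma, Casp14, Lama3 and Pkp1 are on the study's list of most up-regulated genes, which was picked from these same arrays. Counts that include them are therefore no independent evidence of an excess over the background. The count of 4 lower was 1 without DEAB replicate 1, 2 or 3, DEAB and tRA replicate 2 or 3 or vehicle replicate 2, and 3 without each of the other arrays. It was 1 with all clusters tested, 1 with only the 6 arrays compared and 0 with all 18 arrays in 1 fit. Arrays of 1 replicate number deviated together across groups, and with replicate number as a block 1 member cluster was higher and 8 were lower, the additional ones being Serpinb5, Pkp1, Tgm1 and Ovol1, against a background of 1.50% (0.786% higher and 0.713% lower). At an unadjusted p under 0.05 there were 14 member clusters (6.39% of all clusters), and 17 with the block (11.8%). The median fold change of the 40 clusters was -0.064 on the log2 scale beside 0.006 over all clusters, and 24 of 40 were negative. On these bulk arrays a lower transcript level can come from less RNA per cell or from fewer cells that carry it, and these cannot be told apart.

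Against vehicle, each inhibitor alone gave no member call without the block. Between AGN193109 and vehicle limma called 0 of 40 member clusters (background 0.0683%, of which 0.0641% lower), with 6 of 40 at an unadjusted p under 0.05 (3.30% of all clusters). The block called 1 higher, Pkp1, and 1 lower, Dsg2 (background 0.457%, with 0.0854% higher and 0.372% lower), with 10 at an unadjusted p under 0.05 (6.99% of all clusters). Between DEAB and vehicle 0 of 40 were called (background 0.0342%), with 5 at an unadjusted p under 0.05 (4.05% of all clusters), and the block called 1 higher, Serpinb5, and 1 lower, Dsg2 (background 0.303%, with 0.0214% higher and 0.282% lower), with 10 at an unadjusted p under 0.05 (7.99% of all clusters). The members' median fold changes were 0.043 with AGN193109 and 0.017 with DEAB on the log2 scale, beside 0.015 and -0.0001 over all clusters. When tRA was added to AGN193109, 0 of 40 members were called with or without the block (background 0.0812% and 0.0214%), and 9 and, with the block, 11 had an unadjusted p under 0.05 (2.14% and 5.20% of all clusters). Comparisons of one experiment share arrays, so a gene that stood high on the inhibitor arrays enters 1 comparison as higher and the next as lower.

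**Figure D2:**
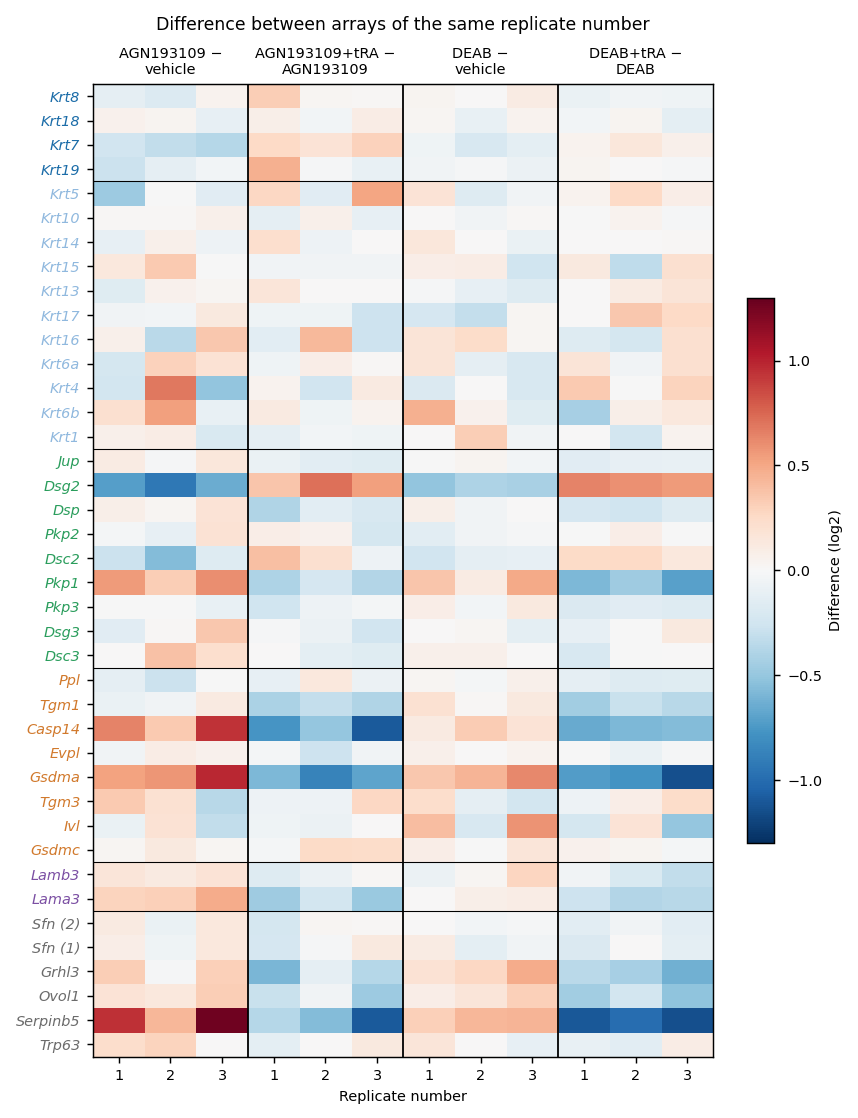
Difference in level (log2) between arrays of the same replicate number for each member cluster (rows, coloured by sub-group as keratins in blue, desmosome in green, envelope in orange, laminins in purple and the others in grey) in 4 comparisons of 3 cultures each. Dsg2 was lower with the inhibitor and higher with tRA in all 3 cultures of both experiments, and Gsdma, Casp14, Pkp1, Lama3, Serpinb5 and Ovol1 went the other way in all of them, in comparisons that share the inhibitor arrays.

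Sequence before the transcription start was found in the RefSeq table (build GRCm38.p6) for 17 of the 39 genes, as windows of 300 bases that lie mostly before a start. Shown are the windows of Serpinb5 (chr1:106860925-106861224, plus strand), Casp14 (chr10:78718244-78718543, minus strand) and Grhl3 (chr4:135573583-135573882, minus strand). They are examples of members called lower when tRA was added to DEAB, Serpinb5 only with the block. Capitals mark TGANTCA, the core bound by AP-1, searched on both strands.
Serpinb5: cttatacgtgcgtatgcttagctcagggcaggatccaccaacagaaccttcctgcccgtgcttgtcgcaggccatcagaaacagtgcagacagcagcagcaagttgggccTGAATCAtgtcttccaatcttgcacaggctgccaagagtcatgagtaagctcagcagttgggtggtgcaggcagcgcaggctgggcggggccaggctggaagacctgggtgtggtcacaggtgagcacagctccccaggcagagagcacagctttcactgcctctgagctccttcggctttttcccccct
Casp14: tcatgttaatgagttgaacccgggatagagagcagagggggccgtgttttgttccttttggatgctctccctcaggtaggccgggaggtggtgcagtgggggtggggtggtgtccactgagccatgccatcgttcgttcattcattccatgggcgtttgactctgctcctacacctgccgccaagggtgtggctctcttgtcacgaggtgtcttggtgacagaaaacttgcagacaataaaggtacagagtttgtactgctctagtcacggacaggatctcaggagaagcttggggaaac
Grhl3: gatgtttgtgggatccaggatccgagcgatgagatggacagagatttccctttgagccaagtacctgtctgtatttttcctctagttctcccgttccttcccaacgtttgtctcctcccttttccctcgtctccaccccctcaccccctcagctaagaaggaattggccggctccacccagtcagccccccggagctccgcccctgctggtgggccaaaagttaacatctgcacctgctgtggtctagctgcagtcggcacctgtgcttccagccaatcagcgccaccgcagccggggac
The Serpinb5 window holds 1 copy of the AP-1 core, which begins 140 bases before the start, and the Casp14 and Grhl3 windows hold none. The windows of Tgm1, which was also called lower in that comparison with the block, hold none either and are not shown. Over all 32851 windows of this length 7.81% hold the AP-1 core, and among the members the windows of Serpinb5, Ivl and Krt13 do. Direct repeats of the RAR half-site with a spacing of 5, 2 or 1 bases (DR5, DR2 and DR1) occur in 0.0974%, 0.268% and 0.222% of all windows and in 0 of the 20 windows of the members, which says only that these letters are not in these windows.

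Simple keratins moved little. With AGN193109 all 4 had negative fold changes, from -0.32 to -0.0035 on the log2 scale, and with tRA added all 4 had positive ones, from 0.043 to 0.25, but limma called none. In the DEAB experiment their signs were mixed, with 1 of 4 positive with DEAB (-0.13 to 0.049) and 2 of 4 when tRA was added (-0.064 to 0.088). Krt7, which pairs with type I keratins in ductal and urothelial cells, was at 12.81, 12.82 and 12.74 with vehicle in replicates 1, 2 and 3 and at 12.56, 12.49 and 12.37 with AGN193109. The 3 AGN193109 arrays were below the 3 vehicle arrays, with a fold change of -0.32 (SE 0.078), an adjusted p of 0.630 by limma and of 0.126 with the block. With DEAB the fold change of Krt7 was -0.13, with a 95% interval of -0.40 to 0.14, and the groups overlapped.

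Stratified keratins gave no call in any of the 6 comparisons, with or without the block. Their fold changes ran from -0.20 to 0.22 with AGN193109 and from -0.17 to 0.15 with DEAB, with 6 of 11 and 4 of 11 positive. Krt6b, a keratin of wounded and hyperproliferative epidermis, had the largest mean rise over both inhibitors, at 0.22 (95% interval -0.07 to 0.50) with AGN193109 and 0.12 (-0.15 to 0.39) with DEAB. Krt5, the basal cell keratin, had the largest mean fall, at -0.20 (-0.52 to 0.11) and -0.01 (-0.21 to 0.19). Between cultures Krt6b had differences of either sign with each inhibitor, and Krt5 with DEAB.

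Krt17, a keratin of epidermal appendages that is induced by injury, differed more between cultures than between treatments in the DEAB experiment. Its levels were 8.54, 7.80 and 7.39 with vehicle, 8.31, 7.49 and 7.42 with DEAB and 8.32, 7.84 and 7.68 with DEAB and tRA. Replicate 1 was the highest and replicate 3 the lowest in each group, and the groups overlapped.

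Of the desmosome genes, Dsg2 and, only with the block, Pkp1 were called, and they moved in opposite directions. Dsg2, the desmoglein of simple epithelia, was at 11.97, 12.01 and 11.94 with vehicle, at 11.46, 11.61 and 11.52 with DEAB, and at 12.11, 12.20 and 12.08 with DEAB and tRA. The DEAB arrays were the 3 lowest and the arrays with tRA the 3 highest, with no overlap. Its fold change with DEAB was -0.44 (SE 0.054), which just missed the threshold by limma (adjusted p = 0.0509) and passed it with the block (adjusted p = 0.0084). When tRA was added it rose by 0.60 (SE 0.054), or 1.51-fold, with an adjusted p of 0.0031 by limma and of 9.87e-04 with the block. Its level with DEAB and tRA was 0.16 above vehicle (95% interval 0.03 to 0.28), which was not called (adjusted p = 0.819 by limma).

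The AGN193109 experiment gave Dsg2 a like course. Levels were 11.76, 11.54 and 11.49 with vehicle, 11.04, 10.61 and 10.84 with AGN193109, and 11.40, 11.33 and 11.37 with AGN193109 and tRA. The AGN193109 arrays were below all others, and the arrays with tRA stayed below the vehicle arrays. The fold change with AGN193109 was -0.76 (SE 0.12), or 1.70-fold lower, with an adjusted p of 0.0680 by limma and of 0.0094 with the block. Adding tRA gave a fold change of 0.53 (SE 0.12), not called (adjusted p = 0.908 by limma and 0.118 with the block). With single arrays left out, the block's fold changes against vehicle ran from -0.82 to -0.68 (AGN193109) and from -0.46 to -0.41 (DEAB). The calls of the block against vehicle did not hold without each array. That for AGN193109 ended without AGN193109 replicate 2 or any of the vehicle arrays (adjusted p = 0.0513 to 0.0974 by limma), and that for DEAB ended without any of the DEAB or vehicle arrays (0.0523 to 0.0732). The rise with tRA added to DEAB was called whichever of the 9 arrays was left out (0.0095 to 0.0219, and 0.0037 to 0.0123 with the block).

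Pkp1 (plakophilin 1), a desmosomal plaque protein that is prominent in stratified epithelium, went the opposite way. Its levels were 9.94, 9.76 and 9.30 with vehicle, 10.30, 9.86 and 9.79 with DEAB, and 9.71, 9.40 and 9.09 with DEAB and tRA. The vehicle and DEAB arrays overlapped, but within every replicate number the DEAB array was the highest and the tRA array the lowest. Pkp1 fell by 0.58 on the log2 scale when tRA was added to DEAB with the block (SE 0.070, adjusted p = 0.0108 by limma), and without the block the same difference was not called (SE 0.21, adjusted p = 0.682). The block's call ended without DEAB replicate 1 or any of the arrays with DEAB and tRA (adjusted p = 0.0553 to 0.0755 by limma).

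In the first experiment Pkp1 was at 9.21, 9.38 and 8.95 with vehicle, at 9.76, 9.69 and 9.56 with AGN193109, and at 9.35, 9.47 and 9.17 with AGN193109 and tRA. The 3 AGN193109 arrays were the highest. The fold change with AGN193109 was 0.49 (SE 0.12, adjusted p = 0.630 by limma), and with the block it was called (SE 0.075, adjusted p = 0.0410). That call was lost whichever of the 9 arrays was left out (adjusted p = 0.0630 to 0.313).

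The other desmosome genes were not called. Dsc2, the desmocollin that accompanies Dsg2 in simple epithelia and lies with Dsg2 on chromosome 18 (RefSeq, GRCm38.p6), had fold changes of -0.34 with AGN193109 and -0.16 with DEAB, and of 0.18 and 0.21 when tRA was added. Its unadjusted p was 0.0168 in the last of these (adjusted p = 0.637 by limma). Dsp and Pkp3 had fold changes of -0.21 and -0.17 when tRA was added to DEAB, with adjusted p of 0.762 and 0.537 by limma. Jup and Pkp2, both bright, had fold changes between -0.13 and 0.08 in the comparisons of either inhibitor with vehicle and of tRA added to either.

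Among envelope and cornification genes, Gsdma and Casp14 led. Gsdma encodes a gasdermin of suprabasal and differentiating skin and upper gut epithelium. It was at 8.20, 8.10 and 8.10 with vehicle, at 8.55, 8.54 and 8.72 with DEAB, and at 7.83, 7.77 and 7.57 with DEAB and tRA. The 3 groups did not overlap, with DEAB highest and DEAB with tRA lowest. Gsdma fell by 0.88 when tRA was added to DEAB (SE 0.077, 1.84-fold lower, adjusted p = 0.0027 by limma and 0.0031 with the block), and the call held without each of the 9 arrays (0.0071 to 0.0191). Its fold change with DEAB over vehicle was 0.47 (SE 0.077, adjusted p = 0.162 by limma and 0.102 with the block).

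In the AGN193109 experiment Gsdma was at 7.45, 7.78 and 7.80 with vehicle, at 7.97, 8.35 and 8.78 with AGN193109, and at 7.39, 7.48 and 8.10 with tRA added. The AGN193109 arrays were above all vehicle arrays, and the AGN193109 array of replicate 1 was below the tRA array of replicate 3. Fold changes were 0.69 (SE 0.23) and -0.71 (SE 0.23), neither called by limma (adjusted p = 1.00 for both, and 0.0620 and 0.129 with the block).

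Casp14 encodes a caspase of cornifying keratinocytes that takes part in filaggrin breakdown. Its levels were 9.96, 10.00 and 10.00 with vehicle, 10.08, 10.33 and 10.18 with DEAB, and 9.42, 9.75 and 9.62 with DEAB and tRA. The 3 groups did not overlap. Casp14 fell by 0.60 when tRA was added (SE 0.088, adjusted p = 0.0374 by limma, 0.0042 with the block). Without the block the call ended when any of the 9 arrays was left out (adjusted p = 0.0560 to 0.156 by limma), and with the block it held without each of them (0.0064 to 0.0382). DEAB alone gave 0.21 over vehicle (95% interval 0.01 to 0.41), which was not called (adjusted p = 1.00 by limma).

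With AGN193109 the levels of Casp14 spread widely, at 9.26, 9.32 and 10.15, beside 8.61, 8.98 and 9.21 with vehicle and 8.50, 8.82 and 9.06 with AGN193109 and tRA. The AGN193109 arrays were above all others. The fold changes of 0.64 with AGN193109 and -0.79 with tRA added (both SE 0.25) were not called (adjusted p = 1.00 for both by limma, and 0.0849 and 0.0922 with the block).

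Tgm1, the transglutaminase that crosslinks envelope proteins at the membrane, was at 10.68, 10.87 and 10.68 with vehicle, at 10.88, 10.89 and 10.80 with DEAB, and at 10.43, 10.60 and 10.44 with DEAB and tRA. The arrays with tRA were below all others, while vehicle and DEAB overlapped. Tgm1 fell by 0.37 when tRA was added to DEAB with the block (SE 0.046, adjusted p = 0.0134 by limma), and without it the difference was not called (SE 0.070, adjusted p = 0.112). The block's call ended without DEAB replicate 1 or 3 or any array with DEAB and tRA (adjusted p = 0.0669 to 0.0831). In the first experiment the fold change of Tgm1 was -0.0035 with AGN193109 (95% interval -0.37 to 0.36) and -0.37 when tRA was added (-0.74 to -0.01, adjusted p = 1.00 by limma).

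The remaining envelope genes were not called in any comparison. Ppl, the plakin with the largest mean fall, had -0.13 (95% interval -0.43 to 0.16) with AGN193109 and 0.02 (-0.12 to 0.16) with DEAB. Evpl, which encodes its partner plakin, had 0.03 (-0.19 to 0.26) and 0.04 (-0.08 to 0.15).

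**Figure D3:**
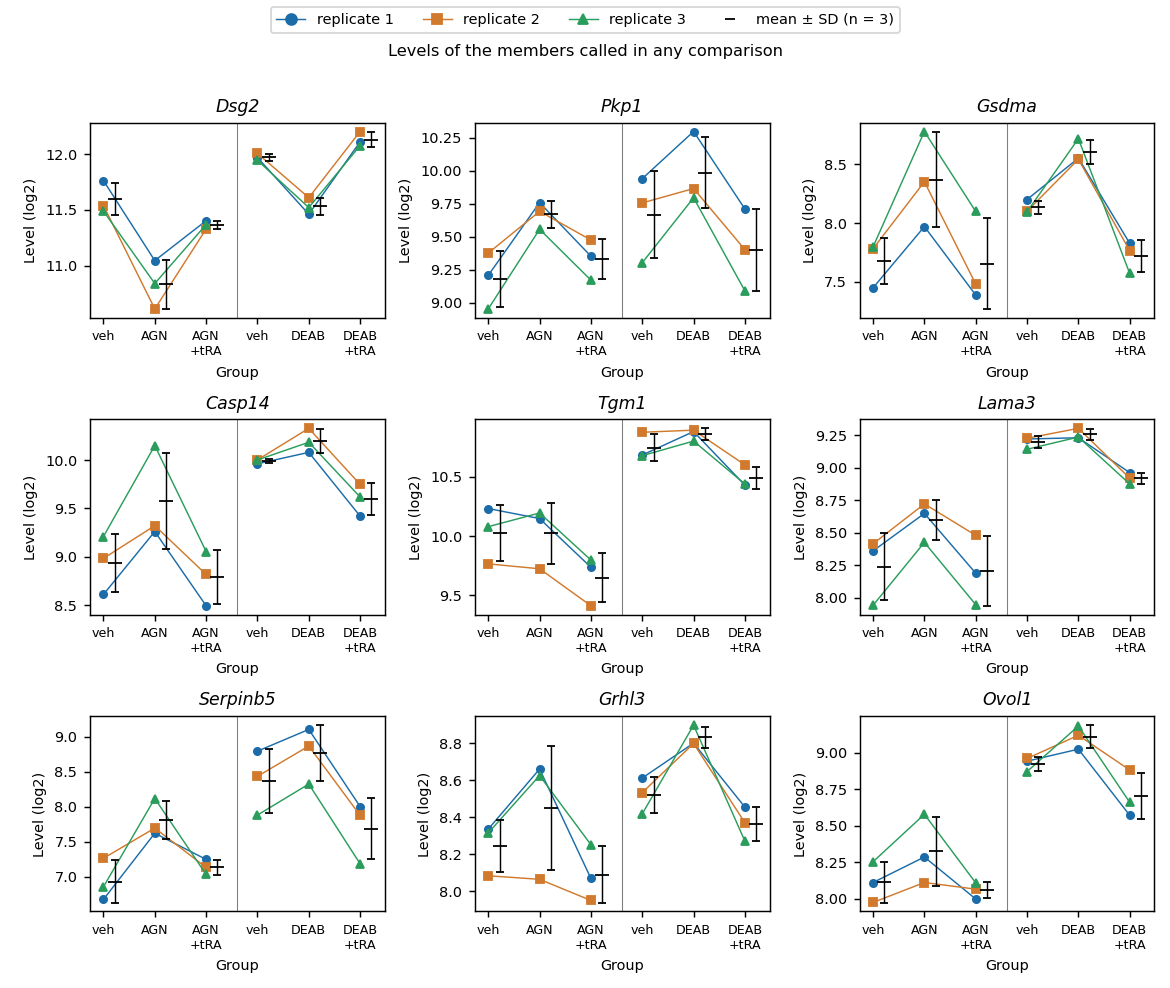
Levels (log2) of the 9 members called in any comparison with or without the block, by group (veh, vehicle). Lines join arrays of the same replicate number within an experiment, and bars show the mean and SD of 3. Dsg2 dips with each inhibitor. The other members have their highest mean with it, Lama3 with DEAB by only 0.06 over vehicle. The exception is Tgm1 with AGN193109, which stays level before it drops with tRA.

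Laminin-332 anchors epithelial cells to their basement membrane, and Lama3 and Lamb3 encode 2 of its chains. Lama3 was at 9.22, 9.23 and 9.14 with vehicle, at 9.23, 9.30 and 9.23 with DEAB, and at 8.96, 8.92 and 8.87 with DEAB and tRA. The arrays with tRA were below all others. Lama3 fell by 0.34 when tRA was added (SE 0.046, adjusted p = 0.0250 by limma, 0.0108 with the block), a call that ended without any DEAB array, without DEAB and tRA replicate 2 or 3 or without vehicle replicate 2 (adjusted p = 0.0524 to 0.134). With the block it ended without DEAB replicate 2 or 3 or DEAB and tRA replicate 2 or 3 (0.0697 to 0.0790). DEAB alone gave 0.06 over vehicle (95% interval -0.04 to 0.16).

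With AGN193109 Lama3 was at 8.65, 8.72 and 8.43, with vehicle at 8.36, 8.42 and 7.94, and with AGN193109 and tRA at 8.19, 8.48 and 7.95. AGN193109 was the highest group within every replicate number. The fold changes were 0.36 (95% interval -0.0036 to 0.72) with AGN193109 and -0.39 (-0.76 to -0.03) with tRA added, not called by limma (adjusted p = 1.00 for both, and 0.144 and 0.252 with the block). Lamb3 gave no call, with fold changes of 0.15 and 0.08 with the inhibitors and of -0.07 and -0.19 with tRA added.

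Serpinb5 encodes maspin, an epithelial serpin that is abundant in squamous and glandular epithelia. In the DEAB experiment its level depended on the culture, at 8.79, 8.43 and 7.88 with vehicle, 9.11, 8.87 and 8.32 with DEAB, and 8.00, 7.88 and 7.18 with DEAB and tRA. Vehicle overlapped with both other groups, but within every replicate number DEAB was the highest by 0.31 to 0.44 over vehicle and the tRA array the lowest. Serpinb5 fell by 1.08 when tRA was added to DEAB with the block (SE 0.053, 2.11-fold lower, adjusted p = 2.28e-04 by limma), whereas without the block the SE was 0.30 and it was not called (adjusted p = 0.378). The block's call held without each of the 9 arrays (6.85e-04 to 0.0041).

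Serpinb5 also passed with the block between DEAB and vehicle, at 0.40 (SE 0.053, adjusted p = 0.0439 by limma), and between DEAB with tRA and vehicle, at -0.68 (SE 0.053, adjusted p = 0.0260). The first call ended without any of the 9 arrays except DEAB and tRA replicate 2 (adjusted p = 0.0807 to 0.230), and the second without any of them (0.0707 to 0.279). It was the only member called against vehicle with DEAB and tRA (background 0.0214% with the block and 0% without). There 9 members had an unadjusted p under 0.05 (5.99% of all clusters), and 15 with the block (11.1%). For AGN193109 with tRA against vehicle 0 members were called (background 0%, and 0.00427% with the block). In that comparison 2 had an unadjusted p under 0.05 (1.79%), and 3 with the block (5.04%).

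In the AGN193109 experiment Serpinb5 was at 6.67, 7.26 and 6.85 with vehicle, at 7.62, 7.69 and 8.12 with AGN193109, and at 7.25, 7.13 and 7.03 with tRA added. The AGN193109 arrays were above all others. Its fold change of 0.88 (SE 0.17, 1.84-fold) was the largest among the 40 clusters in that comparison and was not called (adjusted p = 0.232 by limma, 0.101 with the block), nor was the -0.68 when tRA was added (adjusted p = 1.00 and 0.475).

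Of the transcription factors, Grhl3 and Ovol1 changed when tRA was added to DEAB. Grhl3 (grainyhead-like 3), needed for the epidermal barrier and an activator of Tgm1, was at 8.61, 8.53 and 8.42 with vehicle, at 8.80, 8.80 and 8.90 with DEAB, and at 8.46, 8.37 and 8.27 with DEAB and tRA. DEAB was above all others, and vehicle and tRA overlapped. Grhl3 fell by 0.47 (SE 0.067, adjusted p = 0.0309 by limma, 0.0179 with the block). That call ended without any DEAB array, without DEAB and tRA replicate 2 or 3 or without vehicle replicate 2 (adjusted p = 0.0839 to 0.156), and with the block it ended without DEAB replicate 2, vehicle replicate 2 or any array with DEAB and tRA (adjusted p up to 0.108).

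Ovol1, a repressor that helps keratinocytes leave the cell cycle, was at 8.94, 8.96 and 8.87 with vehicle, at 9.02, 9.12 and 9.18 with DEAB, and at 8.57, 8.88 and 8.66 with DEAB and tRA. DEAB was above all others. It fell by 0.40 with the block (SE 0.069, adjusted p = 0.0433 by limma) and was not called without it (adjusted p = 0.126). The block's call ended without any DEAB array, DEAB and tRA replicate 1 or 3 or vehicle replicate 2 or 3 (adjusted p = 0.0881 to 0.205). With AGN193109 neither factor was called, at 0.21 for both, and the fold changes with tRA added were -0.36 and -0.27.

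Trp63 and Sfn gave no call. Trp63 had 0.17 (95% interval -0.09 to 0.44) with AGN193109 and 0.02 (-0.15 to 0.18) with DEAB. Sfn encodes 14-3-3 sigma, an epithelial cell cycle regulator, and its 2 clusters had fold changes between -0.02 and 0.05 with either inhibitor.

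**Figure D4:**
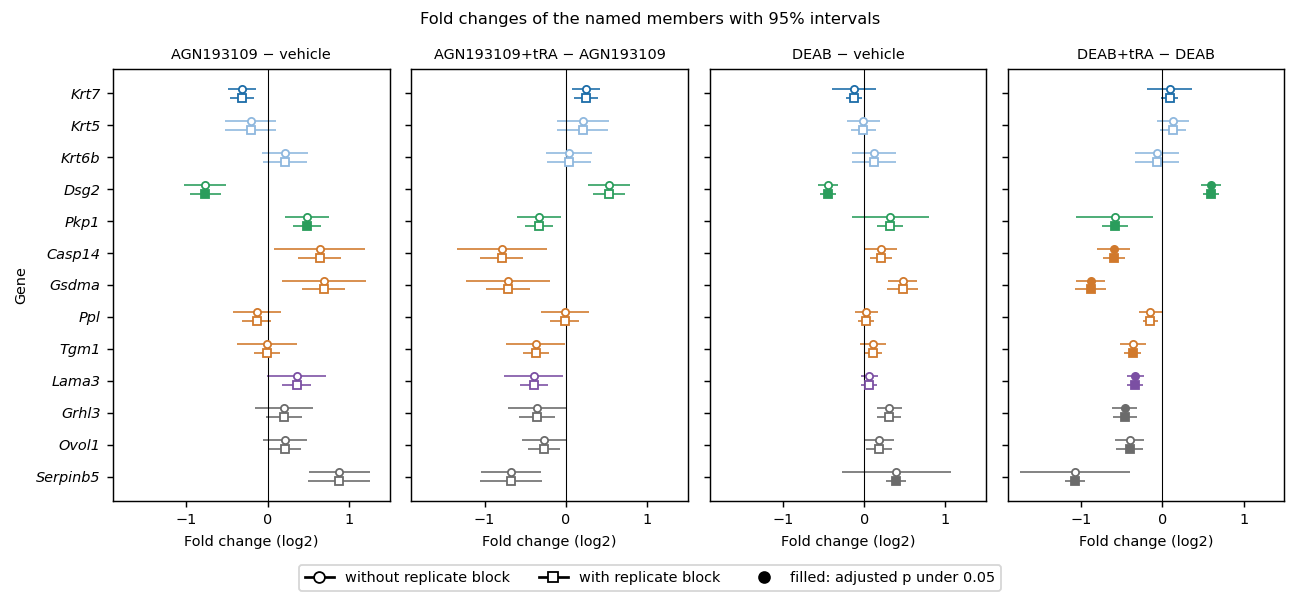
Fold changes (log2) of the 13 named members in 4 comparisons, with 95% intervals from limma without (circles) and with (squares) the replicate block. Filled symbols passed an adjusted p of 0.05, which 5 members did without the block and 9 with it when tRA was added to DEAB.

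Whether the inhibitors differed in their effect was tested as an interaction over the 18 arrays, and 0 of 40 members were called with or without the block (background 0% and 0.00427%), with 1 and 5 at an unadjusted p under 0.05 (2.30% and 5.57% of all clusters). The 1 member was Dsg2, at -0.32 (SE 0.13, unadjusted p = 0.0261, adjusted p = 1.00 by limma), the more negative effect being that of AGN193109. For Gsdma the difference was 0.22 (95% interval -0.33 to 0.77), for Casp14 0.43 (-0.17 to 1.04), for Serpinb5 0.48 (-0.27 to 1.24) and for Lama3 0.30 (-0.08 to 0.68). Without the block these 4 intervals included 0. With it the interval of Gsdma still did (-0.11 to 0.55). Those of Casp14 (0.13 to 0.73), Serpinb5 (0.06 to 0.91) and Lama3 (0.11 to 0.48) did not. The 5 members with the block were Casp14, Dsg2, Krt7, Lama3 and Serpinb5, with adjusted p of 0.639 to 0.866 by limma.

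Genes of the same pathways outside the 39 were read from lists drawn up by function. Of 11 other keratins 1 passed in any comparison, Krt80, which fell by 0.28 when tRA was added to DEAB with the block (adjusted p = 0.0381 by limma, and 0.905 without the block). The share of all clusters called in that comparison with the block was 1.50%. The levels of Krt80 were 12.20, 11.71 and 11.58 with DEAB and 11.93, 11.46 and 11.25 with tRA added. Replicate 1 was the highest in both groups, so the groups overlapped although each culture was lower with tRA. Of 5 other desmosome and corneodesmosome genes 0 were called.

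Of 28 other envelope and cornification genes 3 were called in any of the 6 comparisons, and they did not share a direction. All 3 were called when tRA was added to DEAB with the block (1.50% of all clusters) and 1, Sprr1a, without it (0.325%). Sprr1a, a small proline-rich envelope protein, was at 11.16, 10.84 and 10.68 with vehicle, at 8.87, 8.81 and 8.36 with DEAB, and at 12.74, 12.08 and 11.87 with DEAB and tRA. The groups did not overlap, and it was lowest with DEAB. It fell by 2.21 with DEAB and rose by 3.55 when tRA was added (adjusted p = 0.0184 and 4.87e-04 by limma), opposite in direction to Gsdma and Casp14. With DEAB and tRA Sprr1a stood 1.34 above vehicle (adjusted p = 0.551 by limma, 0.0260 with the block). Its fold change with AGN193109 was -2.78 (adjusted p = 0.0623 by limma, 0.0011 with the block). Adding tRA to AGN193109 gave 2.31 (adjusted p = 0.392 by limma, 0.0075 with the block).

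Tgm2, tissue transglutaminase, was at 9.75, 10.31 and 10.42 with vehicle, at 9.28, 9.67 and 9.78 with DEAB, and at 9.94, 10.27 and 10.55 with DEAB and tRA. It was lowest with DEAB within every replicate number, although vehicle and DEAB arrays overlapped. With the block it fell by 0.58 with DEAB and rose by 0.68 when tRA was added (adjusted p = 0.0118 and 0.0024 by limma), and it fell by 0.98 with AGN193109 (adjusted p = 0.0010). Without the block none of these was called (adjusted p = 1.00, 0.540 and 0.668). When tRA was added to AGN193109, the fold change of Tgm2 was 0.23 and not called (adjusted p = 1.00 by limma, 0.664 with the block), and its mean stayed 0.75 below vehicle (adjusted p = 1.00, 0.0525 with the block). Sbsn (suprabasin), a protein of suprabasal epidermis, fell by 0.37 when tRA was added to DEAB with the block (adjusted p = 0.0127 by limma, and 0.146 without it).

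Plec (plectin), which links keratin filaments to hemidesmosomes, was the 1 called of 7 hemidesmosome and anchoring genes, and it fell by 0.43 when tRA was added to DEAB with the block (adjusted p = 0.0108 by limma, 0.214 without it, background 1.50%). Tfap2a, a transcription factor of surface ectoderm, was the 1 called of 10 further regulators, and it fell by 0.21 in the same comparison with the block (adjusted p = 0.0447 by limma, 0.840 without it). Acta2, a smooth muscle actin on the mesenchymal list, rose by 0.58 there with the block (adjusted p = 0.0024 by limma, 0.773 without it). The mean level of the 8 mesenchymal markers was 6.85 to 6.97 on the DEAB arrays and 6.97 to 7.19 on the arrays with tRA, beside 6.90 to 6.94 with vehicle, with 4 of 8 under the 30th percentile, and its part in the members' changes was not tested.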

How the data were processed

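Transcript levels of mIMCD-3 cultures came from Affymetrix Mouse Gene 1.0 ST arrays, 18 in all and 9 per experiment. The authors made the deposited log2 values by the Robust Multichip Average, in Affymetrix Expression Console per the labels (version and genome build not given in the sources used here). Cultures came from 3 independent experiments per the paper's methods, and array titles gave the groups. No further normalization was applied.

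The platform annotation gave 23410 of the 35556 clusters a symbol (1621 of these more than 1), and these were tested. All members were read from clusters naming 1 gene, and both clusters of Sfn entered the counts. Probes of close paralogs such as Krt6a and Krt6b may detect both transcripts.

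Group means within an experiment were contrasted in limma 3.58.1 (R 4.3.3) with moderated variances. Adjusted p-values are Benjamini-Hochberg values over all 23410 clusters, and those under 0.05 were called. The fit without a replicate block was tested on simulated data in which arrays varied independently. The labels number the replicates, and residuals of same-numbered arrays had r of 0.198 to 0.645 (AGN193109) and 0.179 to 0.614 (DEAB), over 0.1 in 9 of 9 pairs each, while pairs of unlike number had -0.575 to 0.205 and -0.511 to 0.312. The numbers were therefore taken to pair the samples, and a second fit had replicate number as a block. A permutation of 3 against 3 arrays cannot give p below 0.1, so significance rests on the limma model. Precision is limited by how many arrays there are (median SE of a log2 fold change 0.104 and 0.070).

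The members and the other gene lists were chosen with earlier results of these data known. The study had listed Gsdma, Casp14, Pkp1, Lama3 and Sprr1a as regulated on these same arrays. Named in full were members called in any comparison by either fit, Gsdma, Casp14, Pkp1 and Lama3 because the study's text names them, and per sub-group the largest mean rise and fall over both inhibitors. Krt17, Dsc2 and further genes with values were chosen after their values were seen. Lists covered other keratins, desmosome and corneodesmosome genes, envelope and cornification genes, hemidesmosome and anchoring genes, regulators, and collecting duct, mesenchymal and leukocyte markers. Promoter windows were RefSeq's (GRCm38.p6), and the set of windows used held none for the other 22 genes. Python 3.11.15 with matplotlib 3.10.9 made the figures.

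Besides the block, alternatives were a repeated quantile normalization, centring on array medians, dropping clusters under the 30th percentile, testing unnamed clusters too, fitting 6 or 18 arrays, limma's trend and robust settings, and omitting each array. Omitting arrays from the block fit was added after the data were seen.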

Additional observations from a re-analysis of the deposited data

How the results depend on the processing

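The fit with replicate number as a block changed the calls of member clusters as given in the report. It called 1 higher and 1 lower between AGN193109 and vehicle and between DEAB and vehicle, 8 lower when tRA was added to DEAB and 1 lower between DEAB with tRA and vehicle, and it changed no other call. Leaving out single arrays in the fits without and with the block gave 0 to 1 in either direction for each inhibitor against vehicle, and 1 to 8 lower for tRA added to DEAB (1 to 3 without the block and 3 to 8 with it, 7 without vehicle replicate 3). The 4 lower calls for tRA added to DEAB were 1 with all clusters tested, 1 with only the 6 arrays compared and 0 with all 18 arrays in 1 fit, where the adjusted p of Gsdma was 0.0680 by limma. Dsg2 passed against DEAB's vehicle, as 1 lower call, after quantile normalization again, with dim clusters left out and with the trend and robust options (adjusted p = 0.0426, 0.0340 and 0.0122 by limma). It passed against the vehicle of AGN193109, as 1 lower call, with all 18 arrays in 1 fit (adjusted p = 0.0010). Members' medians moved to 0.0135 for AGN193109 after median subtraction; to -0.0266, -0.0242 and -0.0529 for tRA added to AGN193109 after quantile normalization, median subtraction and leaving out dim clusters; and to -0.0519 for DEAB with tRA against vehicle without dim clusters. With single arrays left out they ran from 0.0305 to 0.0745 (AGN193109), -0.0547 to -0.0319 (tRA added to it), -0.0233 to -0.0015 (both against vehicle), -0.0154 to 0.0557 (DEAB, where the sign turned), -0.1001 to -0.0033 (tRA added to DEAB) and -0.0825 to -0.0049 (DEAB and tRA against vehicle). Signs of uncalled differences turned in that test for AGN193109 with tRA against vehicle in Casp14 (-0.3074 to 0.0014), Gsdma (-0.2417 to 0.1136), Lama3 (-0.1819 to 0.0953) and Ovol1 (-0.1245 to 0.0146); for DEAB in Krt5 (-0.1074 to 0.0742), Krt6b (-0.0448 to 0.2249) and Ppl (-0.0237 to 0.0698); and for AGN193109 in Ppl (-0.2128 to 0.0121) and Tgm1 (-0.1332 to 0.1451). The cause was not tested. Of the settings tried for the named members, 1079 kept direction and side of the threshold, 42 passed it where the reported value did not, 40 no longer passed and 17 turned sign. Clusters near the 30th percentile have little signal over background, which limits the stratified keratins most.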
